A study of Mus musculus with 6 samples.

Results

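The genes described here are the immediate early genes of the AP-1 family and their close companions in mouse pancreatic islets, together with the genes that lie on the opposite strand of 2 of them. The 10 genes were taken by name. They are Jun with its opposite gene Junos, Junb with its opposite gene Prdx2, and Fos, Fosb, Egr1, Atf3, Ier2 and Nr4a1. Of these, 9 were followed as rows of a count table with 15286 genes, and counts of Atf3 were not analysed here. The series compared islet RNA of 3 wildtype (WT) and 3 flox/flox male littermates of 12 weeks, with 1 library per mouse. The flox/flox mice, labelled as P0Rik7flox/flox mutants, are homozygous for a gene trap allele of the long non-coding RNA (lncRNA) A830019P07Rik, called P07Rik by the study, which they carry in every tissue, with no Cre involved. All mice had a C57Bl/6 N background and came from heterozygous parents. All were fasted overnight, and their islets were left to recover for 2 h at 3 mM glucose after isolation. By their labels, WT2772, WT2777, KO2775 and KO2776 belong to litter 1, and WT2931 and KO2938 to litter 2, with KO standing for flox/flox. Counts of P07Rik itself were not examined, and the genotype of each mouse is taken from its label.

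AP-1 is a transcription factor made of paired subunits. A Jun protein (Jun, Junb or Jund) joins a second Jun protein, a Fos protein (Fos, Fosb, Fosl1 or Fosl2) or a relative such as Atf3, and the pair binds short DNA elements near its target genes. Fos, Fosb, Jun, Junb, Egr1, Ier2, Atf3 and Nr4a1 are immediate early genes, which a cell switches on within minutes of a stimulus from factors that are already present, so that no new protein is needed. In islets they are known to respond to glucose, to cAMP and calcium signals and to the stress of isolation and culture. Junos is annotated as an antisense lncRNA next to Jun, and Prdx2 encodes a peroxiredoxin, an enzyme that removes hydrogen peroxide.

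In the annotation of GRCm38 (mm10), Jun (ENSMUSG00000052684) is a gene with 1 exon that occupies chr4:95049034-95052222 on the minus strand. Junos (ENSMUSG00000087366) occupies chr4:95051534-95167318 on the plus strand and has 23 separate exon blocks of 4117 bp in all. The exons of the 2 genes share 232 bp, chr4:95051534-95051765, which lie in the 5′ UTR of Jun and are the first exon of 1 transcript of Junos. This is 7.28% of the exon bases of Jun and 5.64% of those of Junos. Junb (ENSMUSG00000052837) occupies chr8:84974484-84978718 on the minus strand, and Prdx2 (ENSMUSG00000005161) chr8:84969587-84974834 on the plus strand. Their exons share 173 bp, chr8:84974484-84974656, which lie in the 3′ UTR of Prdx2 and in an exon of a non-coding transcript of Junb. At its other end Prdx2 shares 177 bp with Rnaseh2a, a ribonuclease subunit gene on the minus strand. Fos on chromosome 12, Fosb (ENSMUSG00000003545) on chromosome 7, Egr1 on chromosome 18, Ier2 on chromosome 8 and Nr4a1 on chromosome 15 have no exon bases opposite those of another gene.

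**Figure D1:**
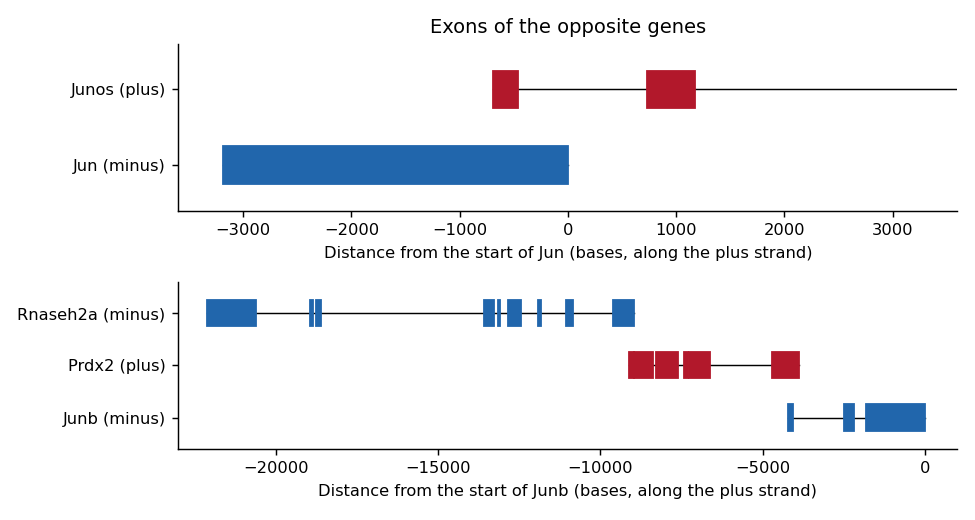
Map of the exons of Jun and Junos (top) and of Junb, Prdx2 and Rnaseh2a (bottom), merged over transcripts, against the distance in bases from the start of Jun or Junb along the plus strand, with plus strand exons in red and minus strand exons in blue. Exons of Junos and Jun share 232 bp, those of Prdx2 and Junb 173 bp, and those of Prdx2 and Rnaseh2a 177 bp, and the top panel stops before the remaining exons of Junos.

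Sequence before the starts of the AP-1 subunit genes is shown because Jun and Junos start back to back in RefSeq and because short elements bound by AP-1, CREB and ATF proteins are known from such promoters. RefSeq promoter entries on GRCm38.p6 were matched for 8 of the 10 genes. The RefSeq start of Jun at 95052222 and the first of 7 RefSeq starts of Junos at 95052317 leave 94 bases between them, chr4:95052223-95052316, here on the strand of Jun. The 100 bases before Junb (chr8:84978749-84978848, minus strand) and before Fos (chr12:85473790-85473889, plus strand) are set beside them, and none of the 3 intervals holds an annotated exon of GENCODE. Capitals mark matches on either strand to TGACG, the core of a cAMP response element, to TGACNTCA, its longer form with 1 free base, to TGANTCA, the AP-1 element, or to CCAAT, the box bound by NF-Y.
Jun to Junos: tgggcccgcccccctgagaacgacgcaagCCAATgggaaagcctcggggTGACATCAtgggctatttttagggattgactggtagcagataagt
Junb: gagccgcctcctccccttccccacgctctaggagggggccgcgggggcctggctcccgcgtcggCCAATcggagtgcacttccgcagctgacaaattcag
Fos: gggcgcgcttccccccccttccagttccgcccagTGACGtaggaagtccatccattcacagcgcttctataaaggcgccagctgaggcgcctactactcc

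The interval of Jun and Junos holds TGACATCA, a match to TGACNTCA, 45 to 38 bases before Jun and 57 to 50 bases before Junos, so that a single element lies before both genes. It also holds CCAAT at 65 to 61 bases before Jun. In the 100 bases before their starts, Fos, Fosb and Atf3 each have 1 match to TGACG and Nr4a1 has 2, Junb has CCAAT and none of the other 3 motifs, and Prdx2 has none of the 4. Of the 6 later starts of Junos, 2 (at 95094813 and 95147486) have TGACTCA, a match to TGANTCA and the only ones among these genes, and 2 others have CCAAT. Of all 32851 RefSeq windows of 100 bases, 10.5% hold TGACG, 4.63% hold TGACNTCA, 2.73% hold TGANTCA and 18.9% hold CCAAT. A match to TGACNTCA with G at the free base contains TGACG as well. These matches describe letters and not sites in use.

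The libraries held between 611181 and 800255 counts. In 5 libraries 13.6% to 22.1% of these fell on AY036118, which the annotation places within a ribosomal RNA gene. In KO2938 the share was 41.0%, so this library stands apart and had 471952 counts left for all other genes. Values across libraries are given in CPM, counts relative to a common library size, after scaling by the TMM method, which corrects the size of a library for such a share. The libraries are strand-specific, and which strand the reads carry relative to the RNA is not given in the sources used here. The rows of the islet hormones were low for this tissue, with 96 to 205 counts per library for Ins2 and 45 to 77 for Ins1, both insulin genes, and 23 to 114 for Gcg, the glucagon gene. Over 895 pairs of an antisense gene and a protein-coding gene with opposite exons, the antisense row held more counts in 717 pairs (80.1%) and more counts per kb of exon in 815 (91.1%). Counts are therefore described by the row that holds them. Whether the reads in the Junos row came from RNA of Junos or of Jun, and likewise for Junb and Prdx2, cannot be told apart in this table.

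Junos held by far the most counts of the 9 genes. Among WT mice, its row had 2073 counts in WT2772, 2180 in WT2777 and 1499 in WT2931. Among flox/flox mice, KO2775 had 1950 counts, KO2776 had 2111 and KO2938 had 707. The libraries of litter 2 lay below those of litter 1 in both genotypes, and KO2938 was the lowest. Scaled to CPM, these are 2844, 2829 and 2027 in WT and 2887, 3718 and 1236 in flox/flox libraries, a mean of 2567 ± 468 in WT and 2613 ± 1264 in flox/flox (SD, n = 3 each). The 2 genotypes overlap, and flox/flox libraries lay at both ends. As a share of all counts other than those of AY036118, the Junos row took 0.347%, 0.343% and 0.251% in the WT libraries and 0.353%, 0.444% and 0.150% in the flox/flox libraries, in the same order. With AY036118 set aside, KO2938 was still the lowest and KO2776 the highest.

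Jun encodes the subunit after which the family is named, and the row of Jun was small. It held 17 counts in WT2772, 16 in WT2777 and 11 in WT2931, and 16, 16 and 4 in KO2775, KO2776 and KO2938. At this depth the 4 counts of KO2938 carry a 95% exact Poisson interval of 1.09 to 10.2 and the 17 of WT2772 one of 9.9 to 27.2, which covers counting error only. The ratio of Junos to Jun counts was 122, 136 and 136 in WT and 122, 132 and 177 in flox/flox libraries, while the Junos row itself moved over a 3.01-fold range in CPM. Over all libraries Jun held 80 counts beside 10520 of Junos, a share of 0.755% of the pair (95% exact binomial interval 0.599% to 0.938%). In single libraries the share lay between 0.563% and 0.814%, with every interval overlapping every other. The log2 ratio was 6.99 ± 0.09 in WT and 7.06 ± 0.21 in flox/flox (SD, n = 3 each), a difference of 0.07 with p = 0.9 by a two-sided exact permutation test, whose smallest possible p here is 0.1.

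Junb encodes the subunit that often opposes Jun in its effects on growth. The Junb row held 64, 61 and 41 counts in the WT libraries, in the order used above, and 71, 58 and 41 in the flox/flox libraries. In both genotypes the library of litter 2 was the lowest. The row of Prdx2 held 10, 17 and 10 counts in WT and 10, 9 and 10 in flox/flox libraries, and did not follow Junb. Prdx2 took 12.3% to 21.8% of the pair's counts in single libraries and 16.4% over all 6, 66 counts beside 336 (95% exact binomial interval 12.9% to 20.4%), so that in this pair, unlike in that of Jun, the larger row is the minus strand AP-1 gene. The log2 ratio of Prdx2 to Junb was -2.14 ± 0.42 in WT and -2.46 ± 0.42 in flox/flox, a difference of -0.32 with p = 0.3 by the same exact permutation test, and the Benjamini-Hochberg adjusted values of the 2 ratios are 0.9 for Jun and 0.6 for Junb. Rnaseh2a, at the other end of Prdx2, held 71 to 107 counts.

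**Figure D2:**
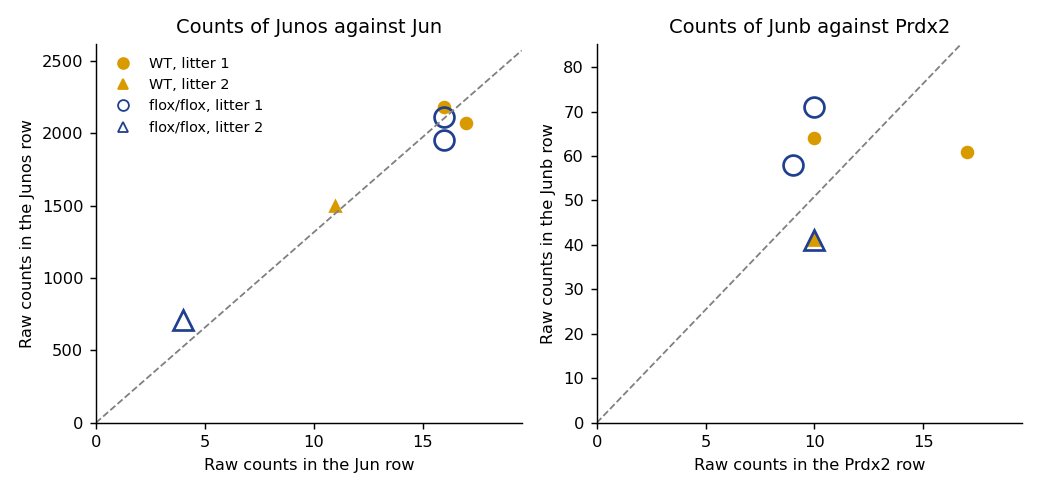
Raw counts of Junos against Jun (left) and of Junb against Prdx2 (right) in each of the 6 libraries, with filled WT and open flox/flox symbols, circles for litter 1 and triangles for litter 2, and a dashed line at the ratio of the summed counts. Junos and Jun fall together along the line from 2180 and 16 counts to 707 and 4, whereas Prdx2 stays at 9 to 17 counts while Junb goes from 71 to 41, and WT2931 and KO2938 coincide in the right panel at 10 and 41 counts.

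Fosb and Fos encode partners of the Jun proteins. Fosb held 15, 11 and 10 counts in the WT and 10, 12 and 2 in the flox/flox libraries, again lowest in KO2938. Fos held 5, 6 and 3 counts in WT and 3, 3 and 0 in flox/flox libraries, and the 0 in KO2938 allows up to 3 counts. The Fos row was near this floor in every library. For Fos, Fosb, Egr1, Ier2 and Nr4a1, which have no opposite gene, whether reads from their RNA reached the row at all is not known either, since the read strand is not given, and low counts are those of the row.

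Egr1, a zinc finger factor induced by the same signals, held 10, 11 and 2 counts in WT and 5, 7 and 7 in flox/flox libraries. Here WT2931 was the lowest and KO2938 was not set apart. Ier2, a small nuclear protein, held 5, 6 and 2 counts in WT and 4, 1 and 2 in flox/flox libraries. Nr4a1, an orphan nuclear receptor, held 0, 0 and 1 counts in WT and 2, 0 and 2 in flox/flox libraries, which with 5 counts in all cannot be compared.

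Set per kb of the named gene's own exons, the mean over the 6 libraries was 629 ± 207 CPM per kb in the row of Junos and 36.3 ± 8.2 in that of Junb (SD, n = 6). Jun followed with 6.16 ± 2.38, Prdx2 with 5.32 ± 1.05 and Ier2 with 3.12 ± 1.60. Fosb had 2.34 ± 1.02, Egr1 2.33 ± 1.00, Fos 2.01 ± 1.16 and Nr4a1 0.37 ± 0.45. The ranges of Junos and Junb and those of Junb and Jun did not overlap between libraries, the mean of the Junos row being 17.3 times that of the Junb row and the latter 5.9 times that of the Jun row. Every later neighbour in this order overlapped the next, Fos and Nr4a1 only through the 0 of Fos in KO2938, with means 5.43-fold apart. This is an order of rows, and it ranks the RNA of the named genes only if the reads carry the strand that was counted. If all reads of a row lay instead in the exon bases shared with the opposite gene, the levels per kb of those bases would be 11164 ± 3675 CPM for the Junos row, 483 ± 109 for the Junb row, 93.9 ± 18.5 for the Prdx2 row and 84.6 ± 32.6 for the Jun row, and would belong to Jun, Prdx2, Junb and Junos in this order. Per kb of their own exons, the rows of the insulin genes had means between those of Junos and Junb. Ins2 had 169 CPM per kb and Ins1 had 86.1.

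**Figure D3:**
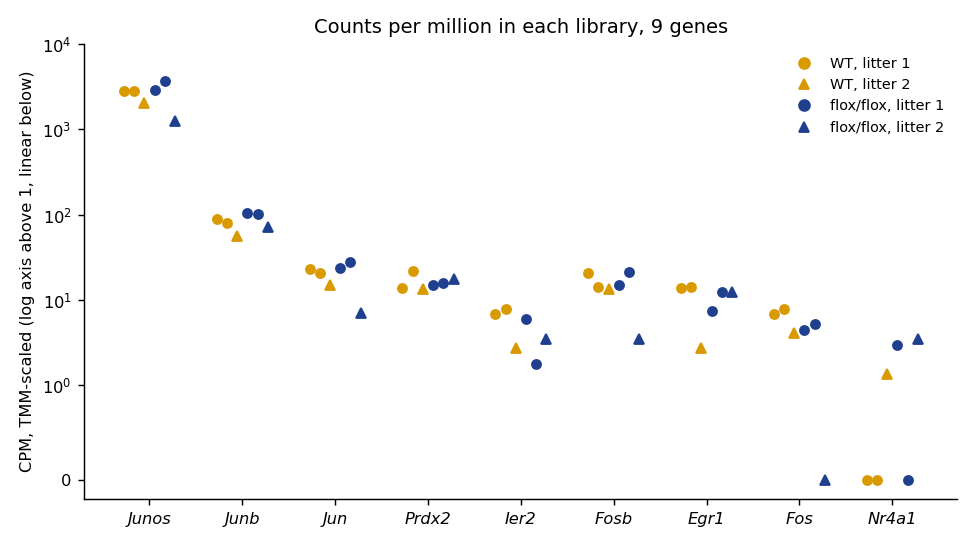
CPM scaled by TMM of the 9 genes in each library, on an axis that is logarithmic above 1 and linear below, ordered by the mean level per kb, with WT in yellow, flox/flox in blue, circles for litter 1 and triangles for litter 2. The Junos row lies between 1236 and 3718 CPM, all other rows lie at or below 105 CPM, and Fos in KO2938 and Nr4a1 in 3 libraries lie at 0.

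The study asked whether loss of P07Rik changes islet gene expression, and for these genes no difference between the genotypes passed the test. Of the 9 rows, 5 had enough counts to be tested, namely Jun, Junos, Junb, Prdx2 and Fosb, and 4 did not. In edgeR's quasi-likelihood test over 5478 genes, 0 genes (0.00%) were called between flox/flox and WT at an adjusted p under 0.05, and 101 (1.84%) had an unadjusted p under 0.05, none of them among the 5. DESeq2 called 0 genes too, with 35 at an unadjusted p under 0.05. The log2 fold changes, flox/flox minus WT, were 0.03 (SE 0.30) for Junos, 0.01 (SE 0.43) for Jun, 0.33 (SE 0.23) for Junb, -0.04 (SE 0.38) for Prdx2 and -0.28 (SE 0.49) for Fosb, with an adjusted p of 1.00 for each. Approximate 95% intervals reached from -0.55 to 0.60 for Junos, from -0.13 to 0.79 for Junb and from -0.84 to 0.86 for Jun. Changes inside these limits could not be told from none with 3 mice per genotype in this model, which leaves litter out. In CPM the genotypes overlapped for all 5 genes, while 7.43% of the tested genes had genotypes that did not overlap. The sign for Junos and Jun was not stable, being negative with library size as the only scaling, with litter in the model, and without KO2775, KO2776 or WT2931 in turn. With litter as the block, the fold change was -0.08 (SE 0.14, adjusted p = 0.99) for Junos and 0.33 (SE 0.18, adjusted p = 0.94) for Junb. The intervals then reached from -0.35 to 0.19 for Junos and from -0.03 to 0.69 for Junb.

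Between litters the row of Junos passed the test, and the tested rows of Jun, Junb and Fosb did not. Whether the called row held RNA of Junos or of the AP-1 subunit Jun cannot be told apart. In litter 2, both libraries lay below all 4 libraries of litter 1 in CPM for Junos, Jun, Junb and Fosb, 4 of the 5 tested genes, and this held for 16.0% of all tested genes. The CPM of Junos was 2829 to 3718 in litter 1 and 1236 to 2027 in litter 2, a log2 fold change of -0.92 (SE 0.15, adjusted p = 2.2e-05, edgeR, 2 mice against 4, with genotype in the model), or 1.89-fold lower. By the same test 620 of 5478 genes were called (11.3%), 333 higher and 287 lower in litter 2, the latter being 5.24% of the genes tested. Jun had a log2 fold change of -1.05 (SE 0.42, adjusted p = 0.096, unadjusted p = 0.016), with 20.8 to 28.2 CPM in litter 1 and 6.99 and 14.9 in litter 2. Junb had -0.56 (SE 0.20, adjusted p = 0.063, unadjusted p = 0.0080), with 79.2 to 105 CPM against 55.4 and 71.7. Fosb had -0.95 (SE 0.48, adjusted p = 0.21), with 14.3 to 21.1 CPM against 3.5 and 13.5. Prdx2 had -0.13 (SE 0.42, adjusted p = 0.88), and its litters overlapped at 13.7 to 22.1 and 13.5 to 17.5 CPM. The median log2 fold change was -0.92 over the 5 genes and -0.01 over all genes tested.

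The call for Junos depended on KO2938 and on the tool. Without KO2938 the log2 fold change was -0.48 (SE 0.17, adjusted p = 0.051, edgeR), and without WT2931 it was -1.41 (SE 0.18, adjusted p = 2.8e-10), the lone library of litter 2 being assumed to vary like the others. In DESeq2 the value was -0.92 (SE 0.31) with an adjusted p of 0.054, and 187 genes were called. KO2938 is also the library with 41.0% of its counts in AY036118, and the part of this in the result was not tested. Without KO2938 the fold changes of Jun and Fosb were -0.55 and -0.35 and that of Junb was -0.58, so that Junb alone of the 4 kept its size. With library size as the only scaling the median of all tested genes shifted to -0.19, and Junos at -1.08 still passed the test (adjusted p = 0.027). Fewer cells of a type and less RNA per cell cannot be told apart in these bulk samples, nor can the litter itself from whatever else was shared within a litter.

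The litter difference of Junos was also taken within each genotype, where litter 2 is 1 mouse that is assumed to vary like the others. Only effect sizes are given, since 1 mouse cannot show its own spread, and a difference between the genotypes was not shown. In WT mice the litter difference was -0.49 (SE 0.17), from 2844 and 2829 CPM in litter 1 to 2027 in litter 2. In flox/flox mice it was -1.42 (SE 0.18), from 2887 and 3718 CPM to 1236. The interaction was -0.93 (SE 0.23, edgeR with 2 residual degrees of freedom, 1 mouse per genotype in litter 2). For Junb the litter difference was -0.59 in WT and -0.53 in flox/flox mice, and the interaction was 0.06 (SE 0.41). For Jun and Fosb the interactions were -1.29 (SE 0.94) and -1.93 (SE 1.12).

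**Figure D4:**
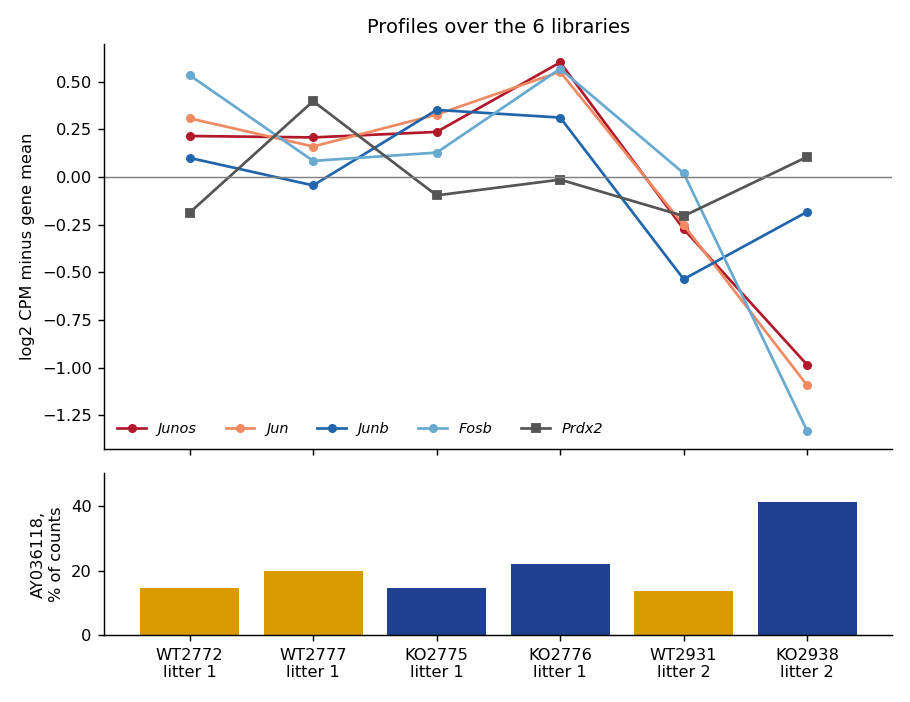
Top, log2 CPM (prior count 2) minus the gene's mean over the 6 libraries for the 5 tested genes, with lines that only join the points of a gene. Bottom, the share of counts in AY036118 in percent, in yellow for WT and blue for flox/flox libraries. Junos, Jun and Fosb are lowest in KO2938, where AY036118 takes 41.0% of the counts, Junb is lowest in WT2931, where it takes 13.6%, and Prdx2 follows neither.

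Other genes of the family were taken from a list of 17 AP-1 relatives, of which 11 had a row and 8 could be tested. Of these, 0 were called between genotypes and 1, Jund, between litters, where it was lower in litter 2. Jund, the Jun protein that is typically present without a stimulus, held 55, 52 and 33 counts in WT and 46, 35 and 17 in flox/flox libraries. Its log2 fold change was -0.86 (SE 0.25, adjusted p = 0.016, edgeR), and it was not called without KO2938, without WT2931 or by DESeq2. Of its 1668 exon bases, 877 lie opposite the gene Gm11175. Fosl1 has 1163 of 2033 exon bases opposite Ccdc85b, and Mafk, Atf5 and Batf2 have 169, 164 and 51 opposite other genes. The values of these genes too are those of rows. Fosl2, a Fos protein, held 15, 17 and 5 counts in WT and 7, 12 and 5 in flox/flox libraries, with a litter value of -1.26 (SE 0.49, adjusted p = 0.084). The median over the 8 was -0.38, and 6 of the 8 lay below 0, beside a median of -0.01 over all genes. Between genotypes the smallest p in each direction belonged to Atf7 at -0.91 (SE 0.46) and Maff at 0.35 (SE 0.25), both with an adjusted p of 1.00.

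**Figure D5:**
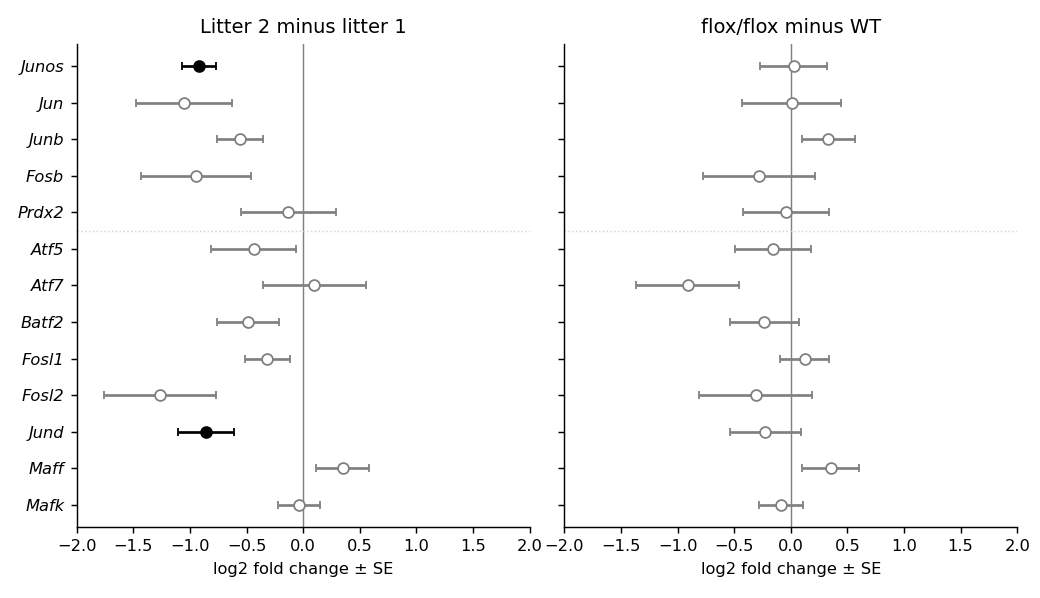
Log2 fold changes with SE from edgeR for the 5 tested genes (above the dotted line) and 8 other AP-1 family genes (below it), litter 2 minus litter 1 on the left and flox/flox minus WT on the right, with filled symbols for an adjusted p under 0.05. Junos at -0.92 and Jund at -0.86 are filled on the left, and no symbol is filled on the right.

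Other immediate early genes were mostly near the floor. Of 46 listed, 34 had a row and 8 could be tested, 0 were called in either comparison, and their median litter value was -0.16. The smallest p among higher values belonged to Cebpb, a bZIP factor, at 0.53 (SE 0.28, adjusted p = 0.23) between litters. Between genotypes Dusp1, a phosphatase that shuts off MAP kinases, had -0.45 (SE 0.34, adjusted p = 1.00). Of 23 kinases and factors upstream of AP-1, 20 had a row and 9 could be tested, and 0 were called in either comparison. Creb1, which binds cAMP response elements, had 0.74 (SE 0.37, adjusted p = 1.00) between genotypes, and Mapk8ip1, the JNK scaffold of islets, had 0.47 (SE 0.31, adjusted p = 0.35) between litters. Of the 9, 6 lay below 0 between litters, with unadjusted p of 0.024 for the kinase Braf at -0.73 (SE 0.31) and 0.045 for Srf, the serum response factor, at -0.95 (SE 0.46), both named after their values were seen. Cebpb, Dusp1, Mapk8ip1 and Braf have 312, 11, 96 and 146 exon bases opposite another gene, so their values too are those of rows. Of 15 peroxiredoxin, thioredoxin and related genes set beside Prdx2, 11 had a row and 3 could be tested, none of them called, with a median litter value of -0.64. Over the 28 genes tested in the 4 lists, 1 (3.57%) was called between litters, beside 11.3% of all genes tested.

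Of the marker genes of islet and other cells, Gcg and Krt7 were called between litters, and few of these markers had enough counts to be tested. Among all genes tested, 11.3% were called. Gcg, the defining marker of alpha cells, was lower in litter 2 at -1.13 (SE 0.27, adjusted p = 0.0027, edgeR), 1 of 1 tested of 5 alpha cell markers, whose summed level was 77.0 to 173 CPM in litter 1 and 54.2 to 64.9 in litter 2. Gcg was not called by DESeq2 or without WT2931. Of 9 beta cell markers 5 were tested and 0 called, with sums of 479 to 591 and 384 to 431 CPM. All 5 had litter values below 0, with a median of -0.36. Of 3 delta and PP cell markers 1 was tested and not called, and no endothelial, stromal or immune marker could be tested. Krt7, a keratin of duct cells, was higher at 0.84 (SE 0.28, adjusted p = 0.042), the 1 row of 5 duct markers, with 20.8 to 40.0 and 44.6 to 62.9 CPM, and it was not called by DESeq2, without KO2938 or without WT2931. Of the 7049 exon bases of Krt7, 77 lie opposite the gene Gm671. None of the acinar markers was called, with 7 of 12 having a row and 1 of them tested. Their sums were 47.4 to 85.7 and 61.2 to 71.7 CPM. Among the acinar genes, Cela1, Cela2a and Prss2 were at 0 in at least 1 library. All of these values and sums are those of rows and do not measure how many cells of a type were present. Gcg, Ins1 and Ins2 have no exon bases opposite another gene. Whether reads from their RNA reached these rows is not known, since the read strand is not given. The part of the marker genes in the litter difference of Junos was not tested.

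The genes whose profile was most like that of Junos over the 6 libraries, by Pearson's r of log2 CPM among tested genes, were A430078I02Rik (r = 0.993), Zfp397 (0.993), Jun (0.992), Btaf1 (0.988) and 9530052E02Rik (0.987), and 15 genes had r above 0.97. These values describe likeness, over libraries in which the low KO2938 and the litters carry most of the spread. Of these, 9530052E02Rik lies opposite Irs2, an insulin receptor substrate, and held 169, 180 and 113 counts in WT and 170, 165 and 63 in flox/flox libraries, a litter value of -0.91 (SE 0.16). A430078I02Rik, Zfp397 and Btaf1 had means of 17.5, 24.3 and 10.8 counts. For the mean of Jun, Junos, Junb and Fosb the nearest were Gm26586, opposite Tpm4, Gm26649, opposite Klf7, A430078I02Rik, 9530052E02Rik and M5C1000I18Rik, opposite C2cd4b, with r from 0.992 to 0.984. M5C1000I18Rik held 530, 499 and 308 counts in WT and 477, 519 and 177 in flox/flox libraries, with a litter value of -1.03 (SE 0.15). Among the 5 tested genes themselves, r was 0.992 for Jun with Junos, 0.937 for Fosb with Junos, 0.657 for Junb with Junos and -0.06 for Prdx2 with Junos.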

How the data were processed

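Counts per gene were deposited by the authors without normalization. Per the study's methods, the libraries were strand-specific total RNA, with reads of 125 bp and about 30 M per library. Reads that mapped to rRNA were discarded, and the rest were mapped to mm10 with HISAT2 2.1.0. Ensembl 88 genes were then counted with HTSeq at a minimum alignment quality of 1, its other settings being left at their defaults. A second table holds the authors' own DESeq2 comparison (fold changes and p-values) and was not used. Of 15286 genes, 15258 were named from GENCODE vM21 and 28 were not in it.

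Counts were tested with edgeR 4.0.16 (limma 3.58.1, R 4.3.3): quasi-likelihood test, TMM normalization, default filter with a minimum count of 10, which left 5478 genes, and Benjamini-Hochberg adjustment over all of them. Genotype was the only term, and litter was tested with genotype as a covariate. Standard errors are those implied by the F statistic, and 95% intervals are normal intervals from these. Log2 CPM used a prior count of 2, and ratios an added count of 0.5. Exact Poisson and binomial intervals cover counting error only. In simulated tables, 2-fold changes were found for 67% of 200 changed genes between genotypes and 66% between litters, and 4-fold changes for 89.5% and 90.5%. Unchanged genes called in the same tables numbered 5 and 14 at 2-fold and 14 and 11 at 4-fold. The changed genes had counts of all levels, and no share was taken for rows as small as those of Jun, Fosb and Prdx2. The tables simulated for genotype held no litter difference, which the real data have and the genotype model leaves out. The shares between genotypes can therefore be too high for the real data. Alternatives used DESeq2 1.42.0, limma-voom, other scalings and filters, a litter block and each library left out. Alternatives chosen after seeing the data were counts of members called in all settings, the genotype by litter term, and listed genes without KO2938 or WT2931.

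Litter numbers come from the labels and mark mice of the same litter, so they pair the libraries. Deviations from the genotype means had correlations of 0.27, 0.16, 0.14, 0.18 and 0.46 for mice of the same litter and -0.35 to -0.25 for others. Such deviations cancel out within a genotype, so positive values for some mice bring negative values for others.

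The genes and lists were chosen with earlier results of these data known. Named are the 10 genes, genes opposite to them, list genes past an adjusted p of 0.05 or with the 2 smallest p in each direction, the 5 nearest profiles, and hormone and marker genes. AY036118 was named after its values were seen.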

Additional observations from a re-analysis of the deposited data

Results flagged for a closer look

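The Junos row stood out within litter 1. KO2776 had 3718 CPM, above the range of 2829 to 2887 CPM in the other 3 libraries of that litter, with a gap of 0.936 of the whole range, above Dixon's 95% limit for 4 libraries. By the same measure Nr4a1 in KO2775, at 2.96 CPM, stood apart from 3 libraries at 0, which rests on 2 counts. Such a measure marks about 1 in 20 groups by chance, and 9 groups were examined. The litter values of Prdx2 in CPM went opposite ways in the genotypes: litter 2 was lower than both litter 1 libraries in WT and higher than both in flox/flox mice, there by 2.15 CPM over the mean of the 2. Both orders rest in part on the scaling. WT2772 and WT2931 each held 10 counts, at 13.7 and 13.5 CPM, and KO2775 and KO2938 also held 10 each, at 14.8 and 17.5 CPM. The interaction for Prdx2 was 0.60 (SE 0.84, adjusted p = 0.95, edgeR).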

How the results depend on the processing

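The table limits what can be said about most of these genes, since Fos, Egr1, Ier2 and Nr4a1 held at most 11 counts per library, and litter 2 is 1 mouse per genotype. Between genotypes 0 genes were called in the test as reported. With library size only, 2 were called, and with litter or the 3 pairs of mice as a replicate block, 3 in each case, none of them among the genes described here. The block changed no call for Jun, Junos, Junb, Prdx2 or Fosb. Leaving out a library gave 0 to 1 calls, the 1 being without KO2938. The log2 ratio of Junos to Jun turned to -0.0077 with an added count of 2 and lay between -0.045 and 0.16 with a library left out. With litter as a replicate block it was 0.12, and that of Prdx2 to Junb was -0.24. Some fold changes between genotypes changed sign, among them that of Fosb, from -0.28 to 0.15 without KO2938. For Jun the values of the other sign were -0.14 with limma-voom, -0.17 with library size only, -0.024 with litter as the block and -0.021 with the 3 pairs. For Junos they were -0.097, -0.11, -0.082 and -0.089 in the same order. With each library left out, values between genotypes lay from -0.30 to 0.40 for Jun, -0.31 to 0.37 for Junos, -0.16 to 0.23 for Prdx2 and -0.74 to 0.15 for Fosb. Between litters DESeq2 called 187 genes, with no member called (0), and library size only gave 265, 46 of them higher. Leaving out a library gave 233 (without WT2931) to 540 genes and 0 (without KO2938) to 1 of the 5 genes described. The litter value of Prdx2 then lay between -0.40 and 0.20, and that of Junos between -1.41 and -0.48. Adjusted p of Junos between litters reached 0.054 at most over all alternatives and passed 0.05 in 12 of 14. DESeq2 gave no adjusted p for Jun, Fosb and Prdx2 between litters, which stays missing. The causes of these shifts were not tested.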
